A study of Mus musculus with 18 samples.

Results

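The NF-kB family of transcription factor subunits and the proteins that restrain them were followed by transcript level in mouse CD8 T cells. The genes were chosen by name: the subunit genes Rela, Rel, Relb, Nfkb1 and Nfkb2, the classical inhibitor gene Nfkbia, the genes of the nuclear IkB proteins Nfkbiz, Nfkbid and Bcl3, and the deubiquitinase gene Tnfaip3. Every probe set carrying one of these symbols was taken. The genes were chosen with earlier results of these data known, so counts of them beside the share of all genes are a description. Of the 10 genes, 9 had a probe set, 17 probe sets in all, out of 18193 genes on the array; Nfkb1 was not analysed here. All 17 probe sets passed the filter on low values, which left 13780 genes to test.

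The cells came from F5 mice on the C57Bl/6 background, which carry a transgenic T cell receptor, so that naive and memory cells share a single antigen specificity. Naive cells were sorted from the spleen. The memory cells, named TIM in the labels, came from F5 mice given 2 immunisations with the NP68 peptide and were taken on day 45. Naive cells were measured ex vivo (2 arrays), after 20 hours with IL-7 at 10 ng/mL (2 arrays) and after 20 hours with IL-7 at 10 ng/mL and IL-4 at 20 ng/mL (2 arrays). Memory cells were likewise taken ex vivo (4 arrays) and, at the same concentrations for 20 hours, with IL-4, with IL-7, with the pair of them or in plain medium (2 arrays each). The 2 arrays labelled memory in medium are described one by one and never averaged in the values that follow. No naive cells in medium or with IL-4 alone are among the groups. Ex vivo arrays are titled biological replicates and cultured arrays only replicates, so the spread behind each p-value is that from array to array, and some of it may be technical.

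NF-kB is a dimer of subunits that binds DNA. In a resting cell, IkBalpha, the product of Nfkbia, holds the dimers of RelA and c-Rel in the cytoplasm. Signals from the T cell receptor, from costimulation or from receptors of the tumour necrosis factor family lead to its destruction, the dimers enter the nucleus, and Nfkbia itself is among the genes that they switch on. RelB and the p100 protein encoded by Nfkb2 form a slower, non-canonical branch. The proteins of Nfkbiz, Nfkbid and Bcl3 act in the nucleus on bound dimers, and A20, the product of Tnfaip3, edits ubiquitin chains and limits signalling upstream. IL-7 keeps naive and memory CD8 T cells alive, and IL-4 signals mainly through STAT6.

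Several of these genes are known targets of NF-kB, so their RefSeq promoters were searched for its motif. Promoters were 300 bases long, from 250 before to 50 after a gene's start (assembly GRCm38.p6), and 7 of the genes had entries, 12 in all. The general NF-kB consensus, searched on both strands, was found in 8 of the 12 entries and in 6 of the 7 genes, all but Rela, against 4.51% of 32851 promoters and 5.14% of 27025 genes. The STAT5-type motif TTCNNNGAA was in 3 of the 12 entries (8.3% of all promoters) and the STAT6-type motif TTCNNNNGAA in 1, a Tnfaip3 entry (6.95%); none of these matches overlapped an NF-kB match, and a match describes the letters only. The windows below run 5′ to 3′ on the gene's strand, with NF-kB matches in capitals. They are shown for the 6 genes with such a match, whatever their results.
Nfkbia, chr12:55492648-55492797, minus strand: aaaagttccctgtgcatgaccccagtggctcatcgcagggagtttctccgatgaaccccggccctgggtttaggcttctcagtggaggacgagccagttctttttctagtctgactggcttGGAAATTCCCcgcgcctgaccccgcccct
Tnfaip3, chr10:19015411-19015560, minus strand: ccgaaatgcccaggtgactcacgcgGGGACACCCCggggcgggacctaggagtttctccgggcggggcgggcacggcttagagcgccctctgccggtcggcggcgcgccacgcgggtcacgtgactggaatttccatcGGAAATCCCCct
Rel, chr11:23770970-23771119, minus strand: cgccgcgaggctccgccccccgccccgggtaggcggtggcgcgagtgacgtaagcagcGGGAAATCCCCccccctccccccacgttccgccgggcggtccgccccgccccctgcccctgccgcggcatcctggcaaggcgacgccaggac
Nfkb2, chr19:46304688-46304717, plus strand: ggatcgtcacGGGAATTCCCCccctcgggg
Nfkbid, chr7:30422170-30422199, plus strand: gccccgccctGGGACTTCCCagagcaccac
Bcl3, chr7:19822734-19822763, minus strand: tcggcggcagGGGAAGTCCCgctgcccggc
In Rel and Nfkb2, 2 matches shifted by 1 base overlap in the capital run. Tnfaip3 holds a pair of separate matches, one of them within 12 bases of the start.

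Values are RMA values on the log2 scale, where a difference of 1 is a doubling, and array medians lay between 4.62 and 4.76. Cd8a and Cd8b1, which encode the CD8 chains, averaged 12.61 and 12.68, so the defining genes of the labelled cell type were bright. The B cell genes Cd79a, Ms4a1 and Pax5 averaged 4.34, 3.88 and 4.55, close to the filter value of 4.06, and Cd4 averaged 4.98. Ighm was bright at 12.13 on average and Cd79b lay at 7.98. The summed B cell list, on a linear scale, was 3010 to 4211 on ex vivo memory arrays and 5369 to 7232 on memory arrays cultured with a cytokine. Ighm makes up most of that sum. The median of the list did not rise: it was 4.63 to 5.53 on the ex vivo arrays and 4.36 to 4.63 on the cultured ones. The part of B cells in the results was not tested. Of the red cell precursor genes, Hba-a1 stayed at 3.05 to 3.71 and Alas2 differed between groups and arrays. Alas2 was 11.50, 8.41, 8.27 and 7.98 on ex vivo memory arrays, 10.09 and 7.05 with IL-7, and 4.15 to 6.15 on naive arrays, and array 1 lay above array 2 in every memory group. Its part was not tested either. The summed NK cell, myeloid, platelet and CD4 lists did not exceed 377 on any array. The array labelled memory in medium, number 2, had a correlation of 0.995 with array 2 of the ex vivo memory cells and of 0.956 with medium array 1.

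**Figure D1:**
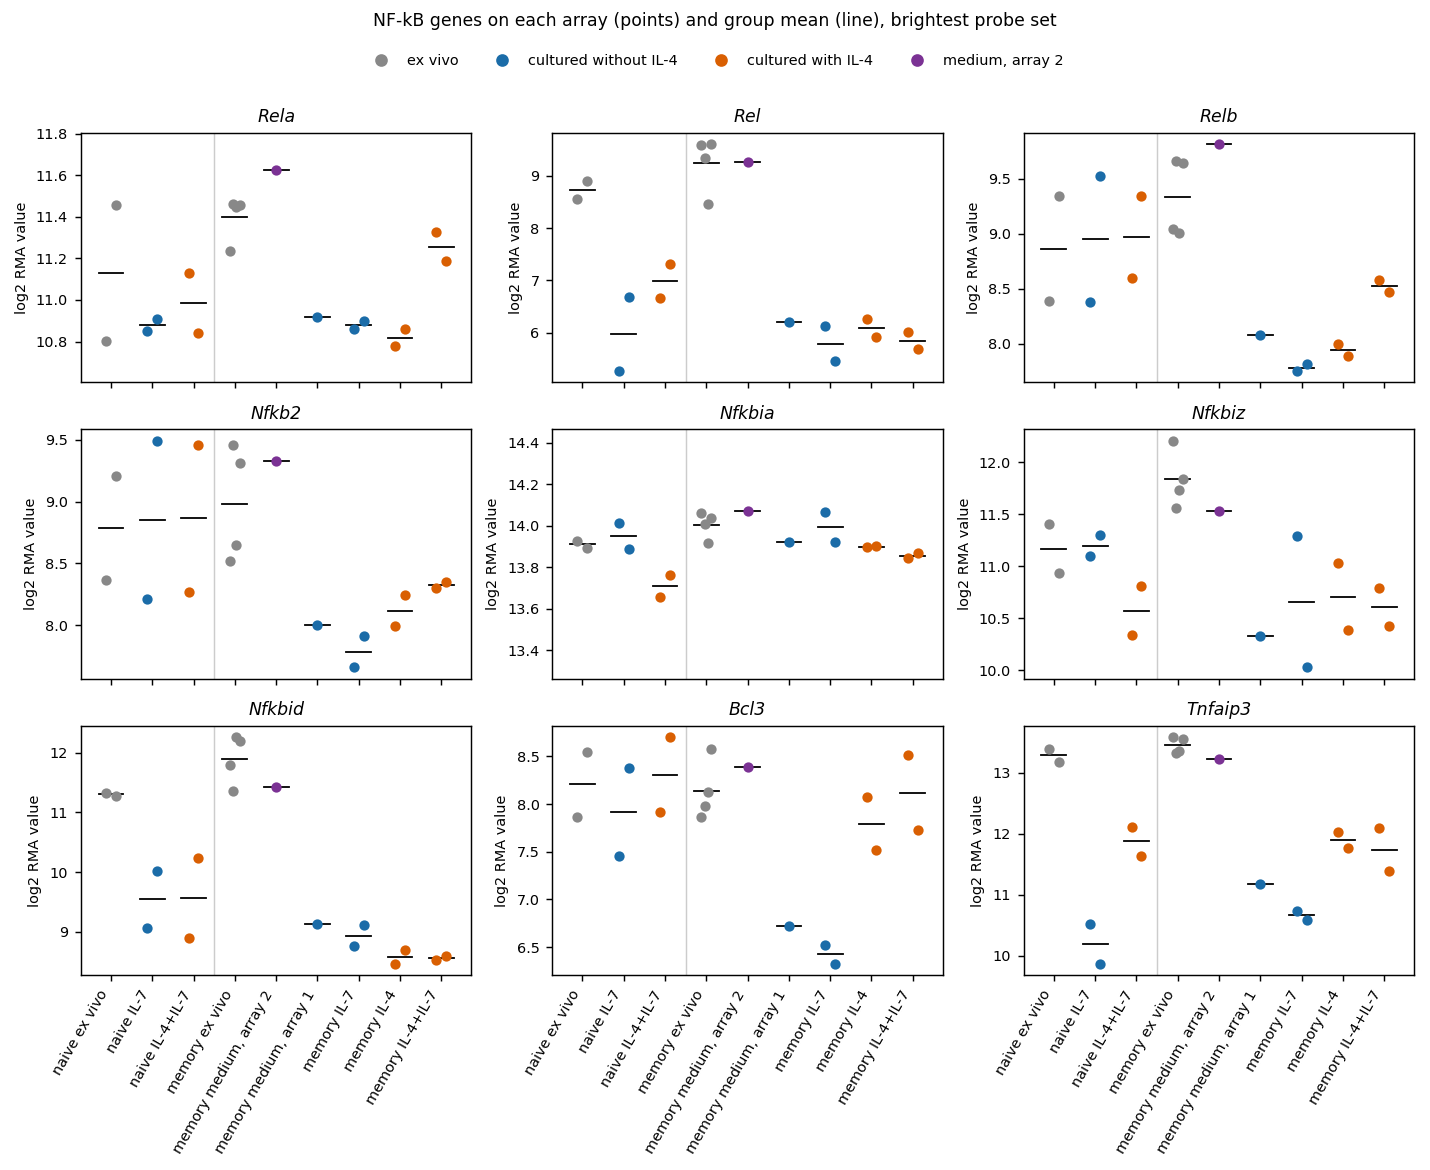
Log2 RMA value of each NF-kB gene (brightest probe set) on each of the 18 arrays, by group, with points for arrays and a line for the group mean; each panel has its own vertical axis. Rel, Nfkbid and Tnfaip3 were at or above 8.47, 11.28 and 13.18 on every ex vivo array and fell with culture in IL-7, while medium array 2 lay with the ex vivo arrays.

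Among the comparisons of whole groups, the largest changes of these genes came with culture. In memory cells kept for 20 hours with IL-7, 8 of the 9 genes were lower than ex vivo and none was higher, with a median difference of -1.55 over the 9 against -0.05 over all genes tested. Across the array, 25.4% of genes passed the same test in either direction, and 10.4% were lower. Rel, Nfkbid and Tnfaip3 fell most. In naive cells with IL-7, 3 of the 9 genes were lower than ex vivo, again Rel, Nfkbid and Tnfaip3. There 18.1% of all genes passed in either direction, and 7.2% were lower. Such a fall in bulk RNA cannot tell less RNA per cell from fewer cells that carry it.

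Rel encodes c-Rel, the subunit most closely tied to lymphocyte activation. Its level on the 4 ex vivo memory arrays was 9.59, 9.35, 8.47 and 9.60, and on the 2 IL-7 arrays 6.12 and 5.46. The groups stood far apart, the lowest ex vivo array more than 2 log2 units above the highest IL-7 array. Rel fell by 3.46 (SE 0.39, adjusted p = 3.99e-05, limma). In naive cells it went from 8.57 and 8.91 ex vivo to 5.27 and 6.68 with IL-7. It fell there by 2.77 (SE 0.45, adjusted p = 0.00117, limma), again with no overlap of arrays.

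Relb and Nfkb2, the genes of the non-canonical branch, both fell in memory cells. Relb read 9.04, 9.66, 9.01 and 9.64 ex vivo and 7.75 and 7.81 with IL-7. It fell by 1.55 (SE 0.34, adjusted p = 0.00414, limma), and all ex vivo arrays lay above both IL-7 arrays. Nfkb2 read 8.52, 9.46, 8.65 and 9.31 ex vivo and 7.66 and 7.91 with IL-7. It fell by 1.20 (SE 0.40, adjusted p = 0.0422, limma). Its other probe set gave a difference of -1.36 with a smaller SE of 0.21 (adjusted p = 0.000386, limma).

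In naive cells neither passed. Relb read 8.39 and 9.34 ex vivo and 8.38 and 9.52 with IL-7, a difference of 0.09 with a 95% interval of -0.74 to 0.92. Nfkb2 read 8.36 and 9.21 ex vivo and 8.21 and 9.49 with IL-7, a difference of 0.06 with a 95% interval of -0.93 to 1.06. In both genes the array numbered 2 was the higher in all 3 naive groups, with IL-4 and IL-7 too (Relb 8.60 and 9.35, Nfkb2 8.27 and 9.46). Bcl3 and Rel showed the same order in the 3 naive groups, Tnfaip3 showed the reverse in all 3, and the remaining genes were mixed. The gap between arrays of a naive group, 0.74 to 1.28 for Relb and Nfkb2, is wide beside these differences. On its other probe set, 1429128_x_at, Nfkb2 read 8.19 and 8.64 ex vivo and 7.68 and 8.14 with IL-7. That set was lower without overlap but did not pass, so the Nfkb2 sets disagree in naive cells.

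Rela, which encodes the p65 subunit, moved least among the subunits in memory cells with IL-7. It read 11.24, 11.46, 11.45 and 11.46 on ex vivo memory arrays and 10.86 and 10.90 with IL-7. It fell by 0.52 (SE 0.17, adjusted p = 0.0384, limma), with no overlap. With the replicate number as a block the difference was -0.47 and no longer passed (adjusted p = 0.149, limma). In naive cells the arrays read 10.80 and 11.46 ex vivo and 10.85 and 10.91 with IL-7, which overlapped.

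Nfkbia, the classical inhibitor, gave different answers by probe set. Its brightest probe set, 1420088_at, had a mean of 13.92, above 99.8% of all single array values (controls left out), and spanned only 0.41 over the 18 arrays. On it the IL-7 memory arrays (14.06 and 13.92) lay within the ex vivo range of 13.92 to 14.06, a difference of -0.01 with a 95% interval of -0.26 to 0.24. Of the other sets, 3 were lower in memory cells with IL-7: 1448306_at at -1.51 (adjusted p = 0.00131), 1420089_at at -0.75 (adjusted p = 0.0217) and 1438157_s_at at -0.57 (adjusted p = 0.0485, all limma). The remaining set, 1449731_s_at, missed the threshold (95% interval -1.86 to -0.13, adjusted p = 0.0898, limma). On 1448306_at the ex vivo arrays read 13.09, 12.37, 12.81 and 12.70 and the IL-7 arrays 11.51 and 10.96, without overlap. The 4 dimmer sets followed each other over the 18 arrays with r of 0.893 to 0.950, and the brightest followed them with r of 0.522 to 0.633, all descriptive. No Nfkbia probe set passed in naive cells.

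**Figure D2:**
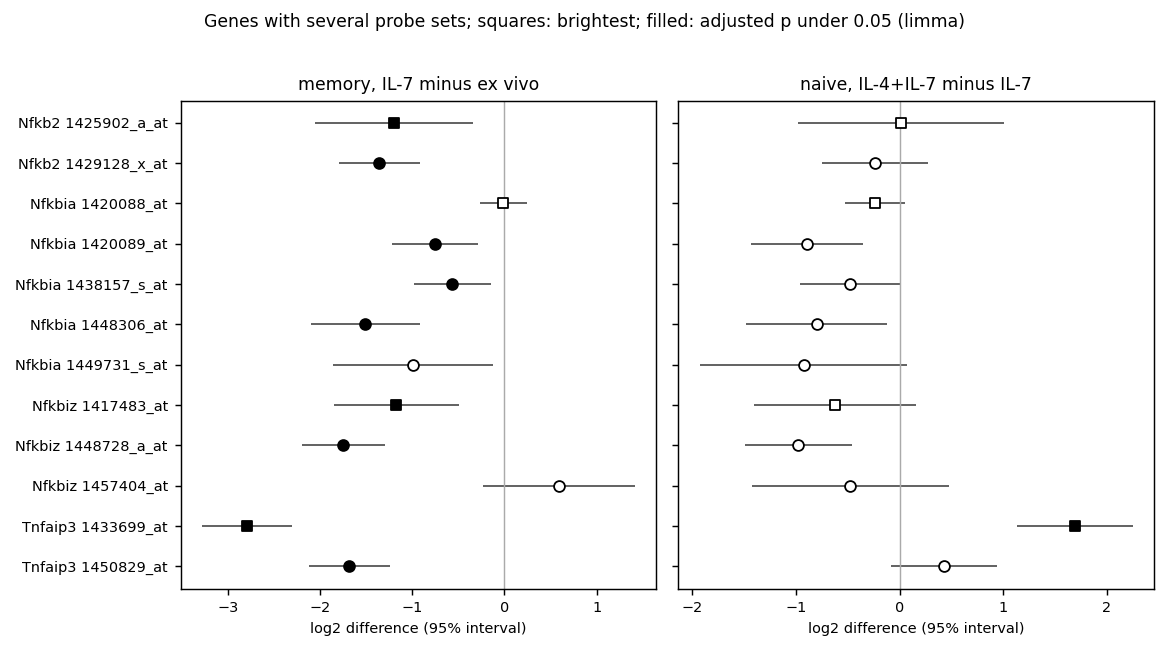
Log2 difference with its 95% interval for every probe set of the genes that have several, in memory cells with IL-7 against ex vivo (left) and naive cells with IL-4 and IL-7 against IL-7 (right); squares mark the brightest set of a gene and filled symbols an adjusted p under 0.05 (limma). The brightest Nfkbia set lay at -0.01 on the left while 3 of the other 4 passed at -0.57 to -1.51.

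Among the nuclear IkB genes, Nfkbid, which encodes IkBNS, a protein needed for full cytokine production by T cells, fell most. It read 11.79, 11.35, 12.26 and 12.19 on ex vivo memory arrays and 8.75 and 9.10 with IL-7. It fell by 2.97 (SE 0.35, adjusted p = 5.89e-05, limma), 7.83-fold. In naive cells it went from 11.33 and 11.28 to 9.07 and 10.02, a difference of -1.76 (SE 0.40, adjusted p = 0.00935, limma). No ex vivo array overlapped an IL-7 one in either cell type.

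Bcl3, whose product works with dimers of p50 or p52, read 7.87, 7.98, 8.13 and 8.58 on ex vivo memory arrays and 6.53 and 6.33 with IL-7. It fell by 1.71 (SE 0.33, adjusted p = 0.00208, limma), and the groups did not overlap. In naive cells it read 7.87 and 8.54 ex vivo and 7.45 and 8.38 with IL-7, which overlapped. Nfkbiz, which encodes IkBzeta, read 12.21, 11.56, 11.74 and 11.84 on ex vivo memory arrays and 11.29 and 10.03 with IL-7. It fell by 1.17 (SE 0.31, adjusted p = 0.0144, limma). The IL-7 arrays differed by more than 1 log2 unit from each other, and the call was lost without array 2 of that group (difference -0.54, adjusted p = 0.289). A second Nfkbiz probe set, 1448728_a_at, fell by 1.75 (SE 0.21, adjusted p = 6.48e-05, limma), and the last, 1457404_at, gave a difference of 0.59 in the other direction (adjusted p = 0.291, limma). Over the 18 arrays 1457404_at followed the others with r of -0.004 and -0.29.

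Tnfaip3 had the smallest p of the 9 genes. It read 13.58, 13.32, 13.36 and 13.56 on ex vivo memory arrays and 10.73 and 10.59 with IL-7. It fell by 2.80 (SE 0.23, adjusted p = 3.48e-06, limma), 6.94-fold. In naive cells it went from 13.39 and 13.18 to 10.51 and 9.87, a difference of -3.09 (SE 0.26, adjusted p = 1.37e-05, limma). Arrays of each of these groups lay within 0.65 of each other, and no ex vivo array overlapped an IL-7 one. The dimmer Tnfaip3 set, 1450829_at, differed by -1.68 in memory and -1.87 in naive cells, both past the threshold.

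Of the 15 alternative settings tried for memory cells, the falls of Rel, Relb, Nfkbid, Bcl3 and Tnfaip3 kept their call in all 15. Rela kept it in 8 and Nfkb2 in 9, with adjusted p up to 0.194 and 0.238, and both lost it without IL-7 array 1 or 2 and without ex vivo array 2 or 4 (Rela also without array 3). In naive cells the falls of Rel and Tnfaip3 held in all 13 settings, and that of Nfkbid was lost without IL-7 array 1 (difference -1.29, adjusted p = 0.102) and with the medium arrays as 1 group (adjusted p = 0.0763).

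Whether the response to culture differed between memory and naive cells was tested as a difference of differences. None of the 9 genes passed by its brightest probe set, with 0.435% of all genes past the threshold, and 4 of the 9 had an unadjusted p under 0.05. The largest estimate was that of Relb, -1.64 (95% interval -2.75 to -0.54, adjusted p = 0.182, limma), which passed with the replicate number as a block (-1.66, adjusted p = 0.0476), and for Bcl3 it was -1.42 (-2.52 to -0.33, adjusted p = 0.238). The Nfkbiz set 1448728_a_at did pass, with a memory minus naive response of -2.08 (SE 0.32, adjusted p = 0.0217, limma). On that set memory cells went from 7.95 to 8.64 ex vivo down to 6.65 and 6.29 with IL-7, while naive cells went from 6.98 and 6.99 to 7.38 and 7.26. The counts of 8 falls in memory and 3 in naive cells do not by themselves show that the cell types differ.

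Immediate early genes, which are switched on within minutes of stimulation or handling, moved with the NF-kB genes. Of 23 such genes, 20 fell in memory cells with IL-7, 12 in naive cells with IL-7 and none rose, where 10.4% and 7.2% of all genes fell. This list too was chosen with earlier results of these data known, so its counts are a description. Their median level was 11.26 to 11.86 on ex vivo memory arrays, 11.56 and 11.59 on ex vivo naive arrays, and 8.53 to 10.01 on cultured arrays other than medium array 2. The Gapdh 3′ minus 5′ difference, a sign of RNA length, was 2.07 to 2.69 on ex vivo arrays and 2.67 to 3.36 on the same cultured arrays, and that of Actb was 1.95 to 2.07 and 1.64 to 2.25. The part of sorting and of RNA quality in the falls was not tested.

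The 2 medium arrays gave opposite pictures of the same label. Shares of all genes past the threshold count rises and falls together here. Whether the label of array 2 is right cannot be told from the files, so a comparison with it is one with the array labelled medium. On medium array 1, 5 of the 9 genes were lower than ex vivo, Rel, Nfkbid, Tnfaip3, Nfkbiz and Bcl3, with 14.4% of all genes past the threshold. On medium array 2, none passed and none of the 13780 genes did (0%), with 445 genes and none of the 9 at an unadjusted p under 0.05. These comparisons share the ex vivo memory arrays with the one in IL-7, and each rests on a single cultured array that is assumed to vary like the other groups.

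The values show how far the medium arrays differed. Rel read 6.20 on medium array 1 and 9.26 on array 2, Nfkbid 9.13 and 11.43, and Tnfaip3 11.17 and 13.22. Array 1 thus lay with the other cultured memory arrays and array 2 with the ex vivo arrays or close to them. Array 1 minus ex vivo was -3.05 in Rel (SE 0.50, adjusted p = 0.00164), -2.77 in Nfkbid (SE 0.45, adjusted p = 0.0016) and -2.28 in Tnfaip3 (SE 0.29, adjusted p = 0.000327, all limma). For array 2 the differences were 0.01, -0.46 and -0.23. Of the 9 genes, 4 (Rel, Nfkb2, Nfkbid and Bcl3) lay inside the range of the 4 ex vivo arrays on array 2, against 61.1% of all genes, and 1, Bcl3, inside the range of the other 7 cultured memory arrays, against 48.1% of all genes. Relb at 9.81 and Rela at 11.63 were higher on medium array 2 than on any of the other 17 arrays. So was the brightest Nfkbia set, barely, at 14.07 beside 14.06 on array 1 of memory cells with IL-7. The immediate early median was 9.08 on array 1 and 11.44 on array 2.

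**Figure D3:**
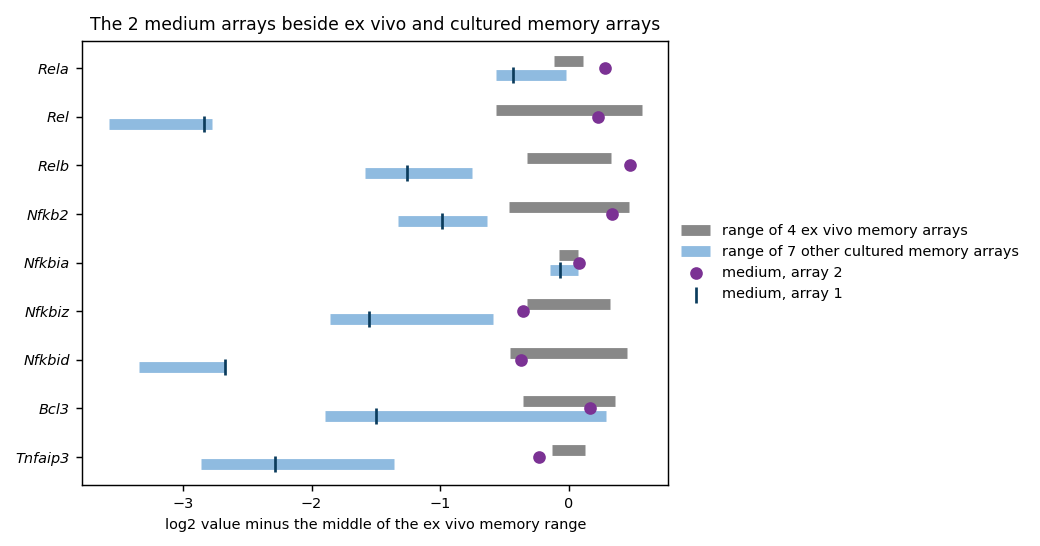
Position of medium array 2 (purple point) and medium array 1 (dark bar) for each NF-kB gene, beside the range of the 4 ex vivo memory arrays (grey) and of the 7 other cultured memory arrays (blue, which include medium array 1), as the log2 value minus the middle of the ex vivo range. For Rel, Nfkbid, Tnfaip3, Relb and Nfkb2, array 2 lay at least 0.98 above the cultured range.

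Comparisons with medium therefore depend on which array is used. The shares of all genes given for them count rises and falls together. Against array 2, 5 of the 9 genes were lower with IL-7 (14.5% of all genes past the threshold) and 5 with IL-4 alone (15.7%). The differences with IL-7 and with IL-4 were -3.47 and -3.17 for Rel, -2.50 and -2.86 for Nfkbid, -2.56 and -1.33 for Tnfaip3, and -2.03 and -1.87 for Relb. Bcl3 passed with IL-7 only and Rela with IL-4 only, a difference not tested. Against array 1, none of the 9 passed in either comparison, where 0% and 1.23% of all genes passed (limma). With the 2 medium arrays as the group their labels make, none of the 9 passed in any comparison with medium. Of all 13780 genes, 200 then passed with IL-4 alone and 0 with IL-7. That fit counts the gap between the 2 medium arrays as spread.

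Set against medium array 1, or added to IL-4, IL-7 gave no change of these genes past the threshold. Against medium array 1, no gene of the array passed; 82 genes and none of the 9 had an unadjusted p under 0.05, and the differences of the 9 ran from -0.51 for Tnfaip3 to 0.33 for Nfkbiz. In memory cells with IL-4, adding IL-7 again moved no gene past the threshold (0%), with 349 genes and 1 of the 9, Rela, at an unadjusted p under 0.05. Rela read 11.33 and 11.19 with both cytokines and 10.78 and 10.86 with IL-4, a difference of 0.44 (95% interval 0.02 to 0.86, adjusted p = 1, limma). Intervals as wide as -1.59 to 0.77 for Rel against medium array 1 do not exclude changes of more than 1 log2 unit.

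IL-4 raised Tnfaip3 in memory and in naive cells cultured with IL-7, and Bcl3 in memory cells. In memory cells 2 of the 9 genes rose and none fell, with 3.19% of all genes past the threshold and 1.84% higher. In naive cells 1 rose and none fell, with 1.44% of all genes past it and 1.01% higher. The medians over the 9 genes were 0.38 and 0.02, against 0.08 and -0.00 over all genes tested. In memory cells both genes had fallen with culture in IL-7, and Tnfaip3 with IL-4 stayed below every ex vivo array.

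Tnfaip3 read 12.10 and 11.38 in memory cells with IL-4 and IL-7 and 10.73 and 10.59 with IL-7. It rose by 1.08 (SE 0.26, adjusted p = 0.0429, limma), 2.11-fold. In naive cells it read 12.11 and 11.64 with both cytokines and 10.51 and 9.87 with IL-7. It rose there by 1.69 (SE 0.26, adjusted p = 0.00439, limma), 3.22-fold. With IL-4 alone, memory cells read 12.02 and 11.76 beside 11.17 on medium array 1, a difference of 0.72 (95% interval 0.03 to 1.40, adjusted p = 0.632, limma). All 6 arrays with IL-4 (11.38 to 12.11) lay above all 5 cultured arrays without it (9.87 to 11.17) when medium array 2, at 13.22, was left out. Such a separation, up or down, was looked for after the values were seen. It held for 1 of the 9 genes and for 3.83% of all genes. The dimmer Tnfaip3 set gave -0.01 in memory and 0.42 in naive cells and passed in neither; its values with IL-7, 4.05 to 4.81, were close to the filter value.

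Bcl3 read 8.51 and 7.72 in memory cells with both cytokines and 6.53 and 6.33 with IL-7. It rose by 1.69 (SE 0.38, adjusted p = 0.0312, limma), 3.23-fold, back into its ex vivo range of 7.87 to 8.58 on 1 of the 2 arrays. With IL-4 alone it read 8.07 and 7.52 beside 6.72 on medium array 1, a difference of 1.07 (95% interval 0.06 to 2.08, adjusted p = 0.616, limma). Within memory cells all 4 IL-4 arrays lay above the 3 arrays without IL-4 (6.33 to 6.72, medium array 2 left out). But 26.1% of all genes separate up or down that way, as did 4 of the 9: Bcl3 and Tnfaip3 upwards, Nfkbia and Nfkbid downwards. Nfkbia did so on its brightest set only, at 13.84 to 13.90 with IL-4 and 13.92 to 14.06 without. Its other sets overlapped, and with IL-7 present their means were higher with IL-4 (1448306_at 11.78 beside 11.23). In naive cells Bcl3 read 7.91 and 8.70 with both cytokines and 7.45 and 8.38 with IL-7, a difference of 0.39 (95% interval -0.44 to 1.22).

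Tested against each other, the responses to IL-4 in memory and in naive cells differed for none of the 9 genes, with 0.0798% of all genes past the threshold and 1 of the 9, Bcl3, at an unadjusted p under 0.05. The memory minus naive difference was 1.30 for Bcl3 (95% interval 0.13 to 2.47, adjusted p = 0.393, limma) and -0.61 for Tnfaip3 (-1.40 to 0.18, adjusted p = 0.515). The other 7 genes ranged from -0.96 for Rel to 0.72 for Relb. A rise of Bcl3 called in memory cells only is thus not shown to differ between the cell types.

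With IL-4 added to IL-7, or with IL-4 alone against medium array 1, the other genes gave no difference past the threshold. Rel in naive cells read 6.67 and 7.31 with both cytokines and 5.27 and 6.68 with IL-7, a difference of 1.02 (95% interval 0.06 to 1.98, adjusted p = 0.479, limma). Relb in memory cells read 8.58 and 8.47 with both and 7.75 and 7.81 with IL-7, without overlap, a difference of 0.75 (95% interval -0.09 to 1.58, adjusted p = 0.34, limma). Nfkbia was lower with IL-4 on each of its 5 probe sets in naive cells, with differences of -0.93 to -0.24, and none passed (lowest adjusted p = 0.146, limma). In memory cells with IL-7 its brightest set gave -0.14, and its other sets were higher with IL-4, by up to 0.55. None of them passed. The calls for Bcl3 and Tnfaip3 in memory cells were lost when array 1 of the group with both cytokines, or either array of the IL-7 group, was left out (adjusted p 0.131 to 0.202). The naive call for Tnfaip3 was lost when array 2 of the IL-7 group (adjusted p = 0.0712) or array 1 of the group with both cytokines (adjusted p = 0.0547) was left out.

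**Figure D4:**
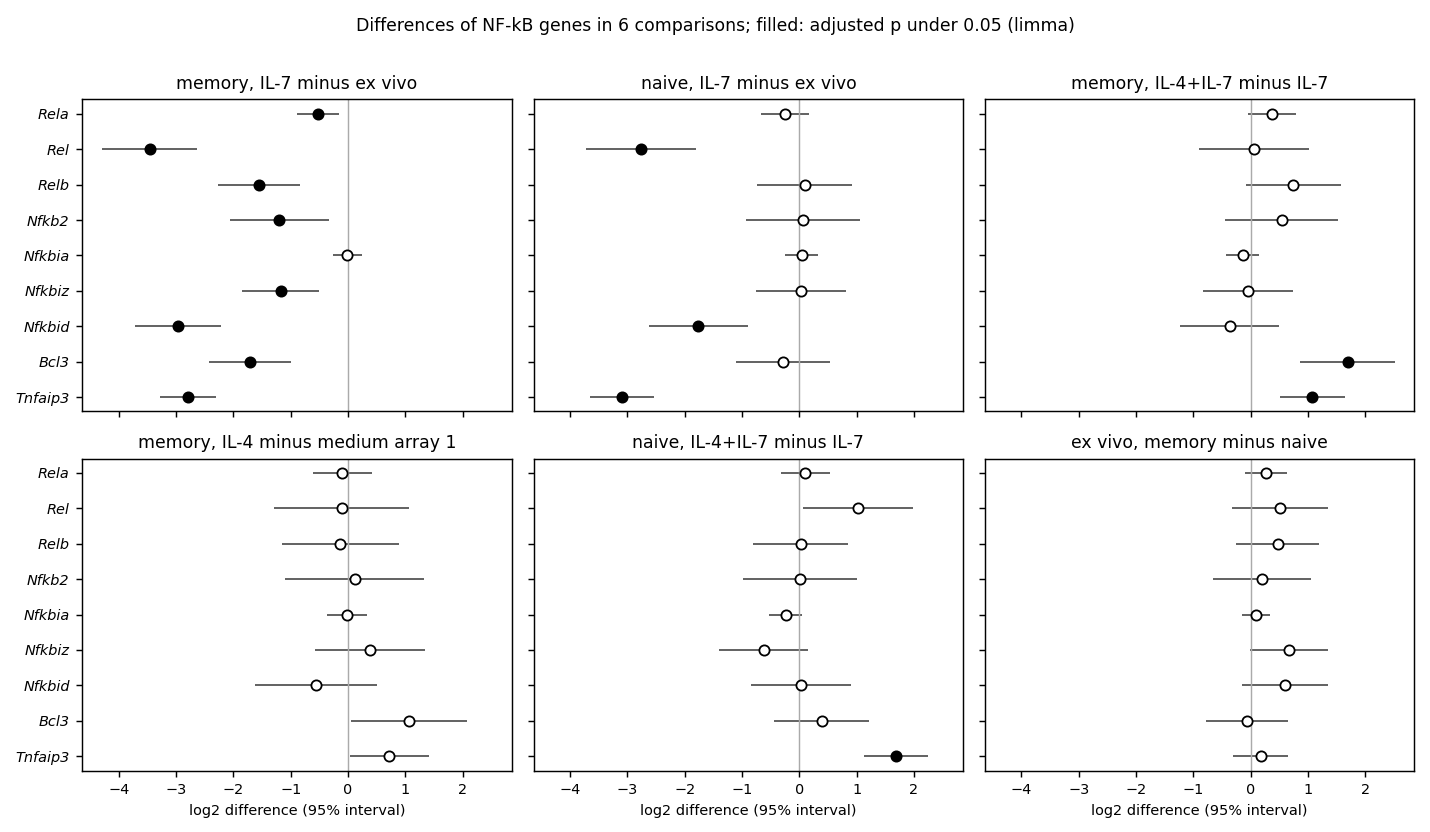
Log2 difference of each NF-kB gene with its 95% interval in 6 comparisons, filled where the adjusted p was under 0.05 (limma). Culture with IL-7 lowered 8 genes in memory and 3 in naive cells, IL-4 raised Bcl3 and Tnfaip3 in memory and Tnfaip3 in naive cells, and the other 2 panels hold no filled point.

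Ex vivo memory and naive cells carried the NF-kB genes at levels that did not differ past the threshold. None of the 9 passed and none had an unadjusted p under 0.05, with 3.11% of all genes past the test (428 genes, limma). The largest estimates were 0.67 for Nfkbiz (95% interval -0.01 to 1.34), 0.59 for Nfkbid (-0.16 to 1.35) and 0.52 for Rel (-0.32 to 1.35). Nfkbiz read 11.56 to 12.21 in memory and 11.40 and 10.94 in naive cells, all 4 memory arrays above both naive ones. The Nfkbiz set 1448728_a_at did pass: 8.64, 7.95, 8.20 and 8.09 in memory against 6.98 and 6.99 in naive cells, higher by 1.23 (SE 0.21, adjusted p = 0.00598, limma). The remaining Nfkbiz set, 1457404_at, went the other way, with means of 7.32 in memory and 7.78 in naive cells, and did not pass.

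After culture with IL-7, 4.09% of all genes differed past the threshold between memory and naive cells, and 2.18% were lower in memory cells. Of the 9 genes, 1 was lower in memory than in naive cells. It was Bcl3, at 6.53 and 6.33 in memory and 7.45 and 8.38 in naive cells, a difference of -1.49 (SE 0.38, adjusted p = 0.0497, limma). The call lay at the threshold and was kept in 7 of 13 alternative settings. It was lost without naive IL-7 array 2 (difference -1.03, adjusted p = 0.446) and without either memory IL-7 array (adjusted p 0.197 and 0.243). Relb differed by -1.17 (95% interval -2.00 to -0.34, adjusted p = 0.132, limma), and Rela by -0.00 (-0.42 to 0.42).

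Set in order of their group means, the genes fell into a few patterns. Rel was highest in medium array 2 and the ex vivo groups (8.74 to 9.26), then dropped to 6.99 in naive cells with IL-4 and IL-7, and the 5 groups below it, at 5.79 to 6.20, overlapped each neighbour. Tnfaip3 had 3 steps: ex vivo groups and medium array 2 at 13.22 to 13.46, the 3 IL-4 groups at 11.74 to 11.89 in overlap with each other, and the groups without IL-4 at 10.19 to 11.17. For Nfkbid the ex vivo groups and medium array 2 stood at 11.30 to 11.90, and the 6 other groups at 8.56 to 9.57. Bcl3 had its 7 highest groups in overlap with each neighbour (7.79 to 8.39), with medium array 1 at 6.72 and memory cells with IL-7 at 6.43 below them. Relb and Nfkb2 were lowest in cultured memory cells other than medium array 2, at 7.78 to 8.53 and 7.78 to 8.32, below every naive group mean.

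The genes most like each member over the 18 arrays were named by Pearson correlation, as a description, since the arrays share groups and normalisation. Relb and Nfkb2 were each other's closest match among all genes tested (r = 0.951), and Slamf1 and the inhibitor gene Nfkbib came next for both. Nfkbid was followed most closely by Nr4a3 (r = 0.984), Dusp2 and Nr4a2, all immediate early genes of T cell stimulation. Rel was followed by Gem (r = 0.964), Klhl15 and Cenpl, and Tnfaip3 by Camk2d (r = 0.976), Trp53inp2 and Fbxo33. Nfkbiz was followed by Igfbp4 (r = 0.909), Jun and Car12, Bcl3 by Ppa1 (r = 0.889), Nop56 and Bcl2l13, and Rela by Stk11 (r = 0.905), Rbm38 and Cir1. The closest match of Nfkbia reached 0.835 (Tagln2). Among the members, Rel went with Nfkbid (r = 0.935) and Tnfaip3 (r = 0.864), and Bcl3 hardly with Nfkbia (r = -0.22).

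Other genes of the pathway, 122 listed and 109 tested, were ligands, receptors, adaptors, kinases, inhibitors, deubiquitinases and target genes. They were listed with earlier results of these data known, so their counts here and below are a description. In memory cells with IL-7 against ex vivo, 14 rose and 30 fell, with a median of -0.22, where 15% of all genes rose and 10.4% fell. Of the 30 target genes, 13 fell and 2 rose (median -0.94), of the 19 receptor genes 5 fell and 1 rose, and of the 21 adaptors 5 rose and 3 fell. Gadd45b, a stress-response target gene, fell by 4.35 (adjusted p = 0.00288), the kinase gene Plk3 fell by 2.95 (adjusted p = 7.68e-07) and the ligand gene Fasl fell by 3.74 (adjusted p = 2.4e-07, all limma). Xiap, an apoptosis inhibitor gene, rose by 1.19 and the adaptor genes Tab1 and Tradd rose by 1.14 and 0.99. In naive cells 14 rose and 17 fell (median -0.02), where 10.9% of all genes rose and 7.2% fell. Plk3 fell by 1.94, Tnfrsf1b, which encodes a receptor for tumour necrosis factor, fell by 2.11, and the ligand gene Lta rose by 3.84 (adjusted p = 3.19e-05, limma).

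With IL-4, a target gene, a kinase and a regulator of the pathway rose in both cell types. Of the 109 genes, 10 rose and 3 fell in memory cells with IL-7, where 1.84% of all genes rose and 1.34% fell. In naive cells 4 rose and 2 fell, where 1.01% of all genes rose and 0.428% fell. The largest rise in both was that of Slc2a6, a target gene that encodes a sugar transporter, by 4.22 in memory (adjusted p = 4.09e-06) and 4.40 in naive cells (adjusted p = 4.07e-06, limma). Il2ra, the target gene of the IL-2 receptor alpha chain, rose by 3.92 in memory cells (adjusted p = 0.0274, limma) and gave a difference of -0.08 in naive cells. The responses of the cell types did not differ past the threshold (adjusted p = 0.297, limma). Map3k8, the gene of the kinase TPL2, rose by 2.58 in memory (adjusted p = 0.00273) and 1.99 in naive cells (adjusted p = 0.021, limma). N4bp1, which encodes an inhibitor of NF-kB signalling, rose by 2.11 (adjusted p = 0.00112) and 1.90 (adjusted p = 0.00273, limma). Against medium array 1, with IL-4 alone, Slc2a6 rose by 3.77, Map3k8 by 2.94 and N4bp1 by 2.63. Otulin, the gene of a deubiquitinase of linear chains, rose there by 1.28, and the receptor gene Il18r1 differed by -1.55. With IL-4 added to IL-7, the falls in memory cells were those of the receptor genes Cd28 (-1.65) and Il18r1 (-1.54) and the target gene Ccl5 (-1.63). In naive cells Il18r1 (-2.39) and the ligand gene Tnf (-1.85) fell, all of these past the threshold. Birc3, a target gene and ubiquitin ligase, rose by 0.96 in naive cells (adjusted p = 0.0285, limma). Ex vivo, 6 of the 109 were higher in memory than in naive cells and 2 lower, Fasl among the higher (4.74, adjusted p = 9.88e-08, limma). Of all genes, 1.44% were higher there and 1.67% lower.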

How the data were processed

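RNA of 18 sorted samples was measured on Affymetrix mouse arrays of 45101 probe sets. Per the labels' protocols, 50 ng of RNA went through linear amplification and an in vitro transcription that adds biotin. The deposited log2 values were made by the authors with RMA, which corrects background, normalises quantiles across arrays and summarises each probe set; the submitters' processing notes name RMA and limma without versions. Quantile normalisation hides a shift of all genes together. The members and lists of genes were chosen with earlier results of these data known.

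Symbols came from the platform annotation, with 34945 probe sets having 1 symbol, 932 several and 9160 none (64 controls left out). A gene stood by its probe set with the highest mean, all member probe sets being given. A single limma 3.58.1 model (R 4.3.3) over all arrays had a mean per label group and 1 for each medium array (9 residual and 4.33 prior degrees of freedom, no replicate block). Tests were two-sided, adjusted by Benjamini-Hochberg over 29843 probe sets above the 40th percentile (4.06) on at least 2 arrays, and called at an adjusted p under 0.05; intervals are unadjusted 95% intervals. Fits were tried on simulated data with independent noise, in comparisons without a medium array. That cannot check whether arrays deviate together or how a single medium array varies. Where a comparison left 1 array in a group, its spread was taken from the other groups. Of the pathway list, the 4 largest called rises and falls per comparison could be named. Alternatives covered medium arrays as 1 group, replicate block, filters, 1 probe set per gene, array medians, variance moderation, array weights, probe set choice and leaving out arrays. The number of arrays limits precision.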

Additional observations from a re-analysis of the deposited data

Results flagged for a closer look

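Rela stood out for 1 array among the 4 ex vivo memory arrays: array 1 read 11.24, below the others at 11.45 to 11.46, a gap large for so small a group. Such a test picks out a share of groups by chance, and a single probe set stands for Rela. Without that array Rela in IL-7 memory cells was still lower than ex vivo.

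The Nfkbiz set 1448728_a_at differed between memory and naive cells in its response to culture with IL-7. The memory minus naive response was -2.08 on the log2 scale (adjusted p = 0.0217, limma, a test of the difference itself). The brightest Nfkbiz set gave -1.20 (adjusted p = 0.286) and the remaining set, 1457404_at, 0.07 (adjusted p = 0.973), so the probe sets of the gene disagree.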

How the results depend on the processing

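The 9 genes had 30 calls over the 15 comparisons, and of 386 alternatives of those calls 309 kept the call, 77 lost it and 0 reversed it; of 1423 alternatives of values not called, 20 gained a call. Counts of the 9 genes past the threshold moved as follows, and the cause was not tested. With the medium arrays as 1 group the count went to 0 for IL-4 added to IL-7 in memory cells (from 2), IL-4 and IL-7 against medium array 2 (from 5 each), IL-4 in naive cells (from 1), memory against naive cells in IL-7 (from 1) and medium array 1 against ex vivo (from 5). Array weights, fitted with the medium arrays as 1 group too, gave 1 for IL-4 added to IL-7 in memory cells and 0 for IL-4 in naive cells, for both comparisons with medium array 2 and for medium array 1 against ex vivo; the medium arrays had the lowest weight, 0.374. The most variable probe set of a gene gave 8 for IL-7 against medium array 2, 1 for memory against naive ex vivo and 1 for the difference of the culture responses, both by Nfkbiz. No filter and trended robust variances each gave 0 for memory against naive cells in IL-7. Leaving out 1 array at a time gave 0 to 2 for IL-4 added to IL-7 in memory cells, 2 to 3 for IL-4 against medium array 2, 0 to 1 for IL-4 in naive cells, 0 to 1 for memory against naive cells in IL-7 and 5 to 8 for memory cells in IL-7 against ex vivo. The design has cultured cells taken from the sorted populations, but no label ties a replicate number to a population. Deviations of same-numbered arrays correlated at 0.14 to 0.45 (median 0.23) between memory groups other than medium and at -0.13 to 0.51 (median 0.14) between naive groups. Between a naive and a memory group they correlated at -0.10 to 0.25 (median 0.02). With the medium group the values were 0.00815 to 0.328. The deviation there is the gap between 2 unlike arrays, so it cannot tell whether numbers pair arrays. With a replicate block Rela lost its call in IL-7 memory cells against ex vivo (adjusted p = 0.149) and with IL-4 against medium array 2 (adjusted p = 0.087). Relb gained one in the difference of the culture responses (count 1, adjusted p = 0.0476), in memory against naive cells in IL-7 (count 2, -1.18, adjusted p = 0.0286) and on medium array 1 (adjusted p = 0.0179). Against medium array 2, Nfkb2 and Nfkbiz gained one with IL-4 and with IL-7 (adjusted p 0.0128 to 0.0396, limma); no other call of the 9 genes changed.

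Over all genes, the count past the threshold (439 for IL-4 added to IL-7 in memory cells) ran from 128 to 728 over the alternatives. It ran from 53 to 212 for IL-4 against medium array 1 (169), 66 to 2364 for IL-4 against medium array 2 (2168), 80 to 908 for IL-4 in naive cells (198), 0 to 2246 for IL-7 against medium array 2 (2000) and 146 to 718 for memory against naive ex vivo (428). For memory against naive cells in IL-7 it ran from 176 to 1257 (564), for memory cells in IL-7 against ex vivo from 1854 to 4835 (3501), for naive cells from 1191 to 2943 (2494) and for medium array 1 against ex vivo from 0 to 2255 (1987). The IL-4 difference between cell types gave 2 to 587 (11) and the culture difference 5 to 229 (60).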
